A study of Mus musculus with 6 samples.

Results

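MHC class II molecules, their loading chaperones and the coactivator Ciita form the group of 10 genes described here: Ciita, Cd74, H2-Aa, H2-Ab1, H2-Eb1, H2-DMa, H2-DMb1, H2-DMb2, H2-Oa and H2-Ob. They were taken by gene symbol from the 19616 genes of the deposited RNA-Seq table, and all 10 were among the 15618 genes expressed highly enough to be tested. RNA came from EDTA-enriched jejunal intestinal epithelial cells (IEC) of mice aged 3 months on a mixed C57BL/6J X 129SV X CD1 background. The 3 control mice, C1, C3 and C3-3, were wild-type. The 3 Hdac1/2-deleted mice, H1, H5 and H9, carried a villin-Cre transgene that removes floxed Hdac1 and Hdac2 in the intestinal epithelium, and are named villin-Cre Hdac1-/-; Hdac2-/- in the labels. The labels do not say whether the controls carried the transgene or the floxed alleles. This Cre is not inducible, other cells of the fraction keep both genes, and 1 library was made per mouse. The p-values below thus weigh the group difference against the variation between these mice. Differences between mice and between their preparations cannot be told apart in it.

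MHC class II molecules are pairs of an alpha and a beta chain that carry peptides from endosomes to the cell surface, where CD4+ T cells read them. The chains meet the invariant chain, encoded by Cd74, in the endoplasmic reticulum, and H2-DM exchanges the last invariant chain fragment for peptide while H2-O restrains H2-DM. Ciita binds no DNA itself but is recruited by RFX, NF-Y and CREB proteins on the promoters of class II genes, and interferon gamma is its best known inducer outside professional antigen-presenting cells. Small intestinal enterocytes are among the non-haematopoietic cells that carry class II molecules.

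Of the 10 genes, 7 were decreased in Hdac1/2-deleted IEC, against 12.7% of the 15618 genes tested. These were Ciita, Cd74, both chains of the classical H2-A molecule, the H2-E beta chain, and H2-DMa and H2-DMb1, with mean expression 9.56 to 57.6 times lower than in control IEC. H2-Oa was the 1 gene increased, against 12.4% of all genes tested, and H2-DMb2 and H2-Ob did not pass the test. In either direction 8 of 10 were called, against 25.2%. A gene was called when its adjusted p was at most 0.05 (edgeR quasi-likelihood test, Benjamini-Hochberg adjustment over the 15618 genes) and its expression differed at least 2-fold. The median log2 fold change of the 10 genes was -3.61, beside -0.01 over all genes tested. Levels are given as CPM, the counts scaled to a common library size by the library total and the TMM factor. Total counts ranged from 36111035 to 65902344 per mouse, and a floor of 3 counts stood at 0.0405 to 0.0790 CPM depending on the mouse, which covers counting error only.

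The labels were first checked against the deleted genes. Hdac1 was at 48.9, 34.5 and 39.1 CPM in control mice C3-3, C3 and C1, and at 4.81, 2.53 and 3.97 CPM in Hdac1/2-deleted mice H9, H5 and H1. Its log2 fold change was -3.43 (standard error 0.26, edgeR adjusted p = 2.91e-05). Hdac2 was at 26.5, 23.6 and 32.9 CPM in control mice and at 21.4, 25.4 and 26.6 CPM in the libraries labelled Hdac1/2-deleted, and the groups overlapped. Its log2 fold change was -0.18 (standard error 0.17, edgeR adjusted p = 0.438). Counts over a whole gene do not show whether an exon was removed, so the state of Hdac2 is taken from the labels, and every direction below is between mice labelled in this way.

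The shares of all counts that fell on the 10 genes give the size of the difference in each library. The 10 genes took 0.680% of the counts in C3-3, 0.135% in C3 and 0.204% in C1. In Hdac1/2-deleted mice they took 0.0185% in H9, 0.0106% in H5 and 0.0104% in H1. Cd74 alone was 0.339%, 0.0922% and 0.107% of the counts in the same control mice, and 0.00504% to 0.00954% in the Hdac1/2-deleted mice. The values of all 10 genes are drawn for each mouse below.

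**Figure D1:**
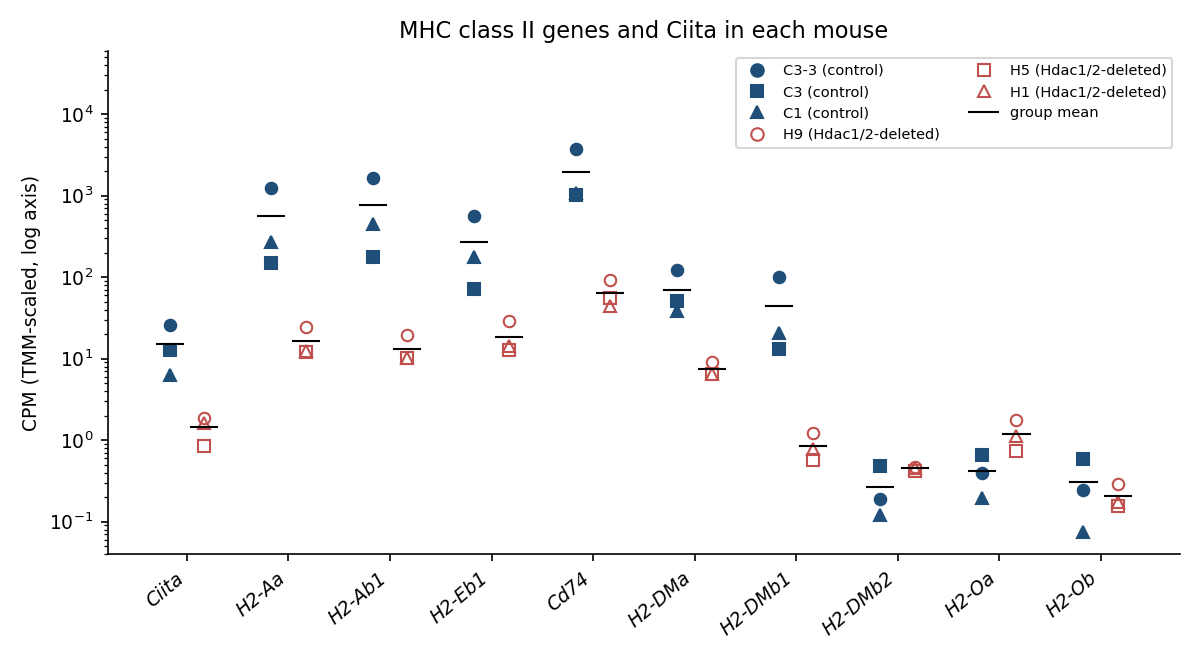
Expression of the 10 genes in each of the 6 mice, in CPM on a log axis, with filled symbols for control and open symbols for Hdac1/2-deleted mice and a bar at each group mean. From Ciita to H2-DMb1 every control mouse lies above every Hdac1/2-deleted mouse, C3-3 is the highest control in each of these 7 genes, and H2-DMb2, H2-Oa and H2-Ob lie near or below 1 CPM except in H9 and H1 for H2-Oa.

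Promoter letters are shown because class II genes are known for a shared promoter with an X box, bound by RFX, and a Y box, an inverted CCAAT motif bound by NF-Y, and because the members moved in different directions. RefSeq promoter windows of GRCm38.p6, from 250 bases before to 50 after a start site, were found for 7 of the 10 genes, in 8 windows. Ciita, H2-Ab1 and Cd74 are not among them. The Y box core ATTGG and its longer form GATTGG were searched on both strands, and the longer form contains the shorter. GATTGG stood in 7 of the 8 windows and in all 7 genes, against 16.1% of 32851 promoters, and ATTGG stood in the same number of windows, against 37.4%. In each of these windows the match was on the gene strand. The X box letters AGCAAC were found on the gene strand of H2-Eb1, H2-Oa and H2-Ob, against 14.8% of promoters on either strand, and AACAGAT in none of the 8 windows, against 3.39%.

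For the genes whose GATTGG lies within 100 bases before the RefSeq start, 64 bases around it follow, 5′ to 3′ on the gene strand, with capitals for GATTGG and, where found, for a GNAAC that precedes it by 20 to 40 bases. The windows compare genes that were decreased (H2-Aa, H2-Eb1), increased (H2-Oa) or not called (H2-DMb2, H2-Ob).
H2-Aa (chr17:34287859-34287922, minus strand): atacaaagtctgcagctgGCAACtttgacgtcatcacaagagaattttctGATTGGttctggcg
H2-Eb1 (chr17:34305757-34305820, plus strand): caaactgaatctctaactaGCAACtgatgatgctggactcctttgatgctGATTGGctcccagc
H2-DMb2 (chr17:34145108-34145171, plus strand): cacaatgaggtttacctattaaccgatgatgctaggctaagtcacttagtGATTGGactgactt
H2-Oa (chr17:34092285-34092348, plus strand): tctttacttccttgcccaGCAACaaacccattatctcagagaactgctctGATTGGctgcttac
H2-Ob (chr17:34238797-34238860, plus strand): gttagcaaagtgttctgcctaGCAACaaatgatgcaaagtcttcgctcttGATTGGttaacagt

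None of these windows overlaps an annotated exon on its strand except that of H2-Oa, in which 9 bases do. The H2-DMb2 window lies inside the gene as GENCODE annotates it, since the GENCODE start is upstream of the RefSeq start, and the H2-Eb1 window lies within the span of the antisense gene Gm20513. GATTGG begins 49 bases before the start of H2-Aa, 60 before H2-Eb1, 91 before H2-DMb2, 44 before H2-Oa and 58 before H2-Ob. The spaced pair of GNAAC and GATTGG, a pattern chosen after these letters had been seen, was found in 5 of the 7 genes and in 0.581% of all promoters, on the gene strand. The gap between its parts was 27 bases in H2-Aa, H2-DMb1 and H2-Oa, 26 in H2-Eb1 and 24 in H2-Ob. The pair was thus held by genes that were decreased (H2-Aa, H2-DMb1 and H2-Eb1), increased (H2-Oa) and not called (H2-Ob), and not by H2-DMb2. H2-DMa has no GATTGG within 100 bases before either of its RefSeq starts, and the window of H2-DMb1 lies within an annotated exon and is not shown.

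Ciita (ENSMUSG00000022504, chromosome 16, 10480059 to 10528418 on GRCm38), the coactivator that sets the level of class II transcription, was at 26.2, 12.7 and 6.39 CPM in C3-3, C3 and C1. It was at 1.87, 0.842 and 1.61 CPM in H9, H5 and H1, which is 32 to 119 counts. The groups did not overlap, and the lowest control was 3.42 times the highest Hdac1/2-deleted mouse. The mean fell from 15.1 ± 10.1 to 1.44 ± 0.533 CPM (SD, n = 3 mice each), 10.5 times lower. The log2 fold change was -3.37 (standard error 0.56, 95% interval -4.68 to -2.06, edgeR adjusted p = 0.00259).

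H2-Aa and H2-Ab1 encode the alpha and beta chains of the classical H2-A molecule and lie next to each other on chromosome 17, at 34282744 to 34287823 and 34257689 to 34269419. H2-Aa was at 1249, 150 and 271 CPM in C3-3, C3 and C1 and at 24.8, 12.03 and 12.3 CPM in H9, H5 and H1. H2-Ab1 was at 1662, 179 and 454 CPM in the same control mice and at 19.5, 10.3 and 10.1 CPM in the Hdac1/2-deleted mice. For either chain the groups did not overlap, and the controls themselves differed widely, with C3-3 highest and C3 lowest. The mean of H2-Aa was 34.0 times lower (log2 fold change -5.08, standard error 1.02, edgeR adjusted p = 0.0125). The mean of H2-Ab1 was 57.6 times lower, the largest fall of the 10 genes (log2 fold change -5.85, standard error 1.03, edgeR adjusted p = 0.00726). The call of H2-Aa was lost without H1 (edgeR adjusted p = 0.0531).

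H2-Eb1 (chromosome 17, 34305867 to 34316674) encodes the beta chain of the H2-E molecule. It was at 558, 72.6 and 175 CPM in C3-3, C3 and C1 and at 28.7, 12.9 and 14.2 CPM in H9, H5 and H1. The order of the mice was that of H2-Aa within the controls, and the groups did not overlap. The mean was 14.4 times lower (log2 fold change -3.85, standard error 0.89, 95% interval -6.10 to -1.60, edgeR adjusted p = 0.0201). The call was lost when C1, H5 or H1 was left out (edgeR adjusted p = 0.0552, 0.0579 and 0.0736), with log2 fold changes of -4.08, -3.64 and -3.68. The antisense gene Gm20513 overlaps H2-Eb1, and whether the counting used strand is not given in the sources used here.

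Cd74 (chromosome 18, 60803848 to 60812652), the invariant chain that fills the groove of new class II molecules, was the most abundant of the 10 genes. Its level was 3702, 1034 and 1066 CPM in C3-3, C3 and C1 and 93.7, 56.3 and 44.4 CPM in H9, H5 and H1. The lowest control was 11.04 times the highest Hdac1/2-deleted mouse. The mean fell from 1934 ± 1531 to 64.8 ± 25.7 CPM (SD, n = 3 mice each), 29.8 times lower. The log2 fold change was -4.90 (standard error 0.66, edgeR adjusted p = 0.00152).

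H2-DMa and H2-DMb1 encode the chains of H2-DM, the peptide exchange catalyst. H2-DMa (chromosome 17, 34119541 to 34139101) was at 122, 50.9 and 38.7 CPM in C3-3, C3 and C1 and at 9.22, 6.50 and 6.41 CPM in H9, H5 and H1. H2-DMb1 (34153072 to 34160230) was at 101, 13.2 and 20.5 CPM in the same control mice and at 1.22, 0.579 and 0.783 CPM in the Hdac1/2-deleted mice, the latter from 22 to 75 counts. Neither gene had overlapping groups, and the lowest value of H2-DMb1 was above the floor of 3 counts. H2-DMa was 9.56 times lower (log2 fold change -3.25, standard error 0.47, edgeR adjusted p = 0.00179). H2-DMb1 was 52.1 times lower (log2 fold change -5.68, standard error 1.02, edgeR adjusted p = 0.0078). H2-DMa overlaps Brd2, which lies on the other strand and was itself decreased, so reads on their shared exons could belong to either gene where strand was not used.

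H2-DMb2 (34143307 to 34151555), a second H2-DM beta chain gene, was low in all mice. Its counts were 10, 27 and 8 in C3-3, C3 and C1 and 29, 16 and 34 in H9, H5 and H1, or 0.188, 0.486 and 0.121 CPM against 0.471, 0.421 and 0.459 CPM. The groups overlapped through C3, and the log2 fold change was 0.77 (standard error 0.54, 95% interval -0.46 to 2.00, edgeR adjusted p = 0.285). The interval excludes a fall of the size seen in H2-DMb1. The transcripts of H2-DMb1 and H2-DMb2 were identical at 94.4% of 1255 aligned bases, so reads could be split between them by the counting, and the low counts of H2-DMb2 are uncertain for this reason.

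H2-Oa and H2-Ob encode the chains of H2-O, the inhibitor of H2-DM that is best known from B cells. H2-Oa (34092340 to 34095234) was at 0.395, 0.666 and 0.196 CPM in C3-3, C3 and C1 and at 1.76, 0.737 and 1.13 CPM in H9, H5 and H1. These levels rest on 21, 37 and 13 counts against 108, 28 and 84, and the groups did not overlap, although H5 lay close to C3. The mean rose from 0.419 ± 0.236 to 1.21 ± 0.513 CPM (SD, n = 3 mice each), and the log2 fold change was 1.54 (standard error 0.52, 95% interval 0.36 to 2.72, edgeR adjusted p = 0.0415). The call was lost without C3-3, C1, H9 or H1 (edgeR adjusted p = 0.101, 0.0899, 0.147 and 0.0834), while the log2 fold change stayed between 1.18 and 2.05 in the 6 fits that left out a mouse.

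H2-Ob (34238903 to 34254414) was at 0.245, 0.594 and 0.0755 CPM in C3-3, C3 and C1 and at 0.293, 0.158 and 0.175 CPM in H9, H5 and H1. The groups overlapped, and the counts were 5 to 33 per mouse. Its log2 fold change was -0.51 (standard error 0.69, 95% interval -2.09 to 1.06, edgeR adjusted p = 0.587). The sign turned without C3 (log2 fold change 0.42), so no direction can be given for this gene.

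**Figure D2:**
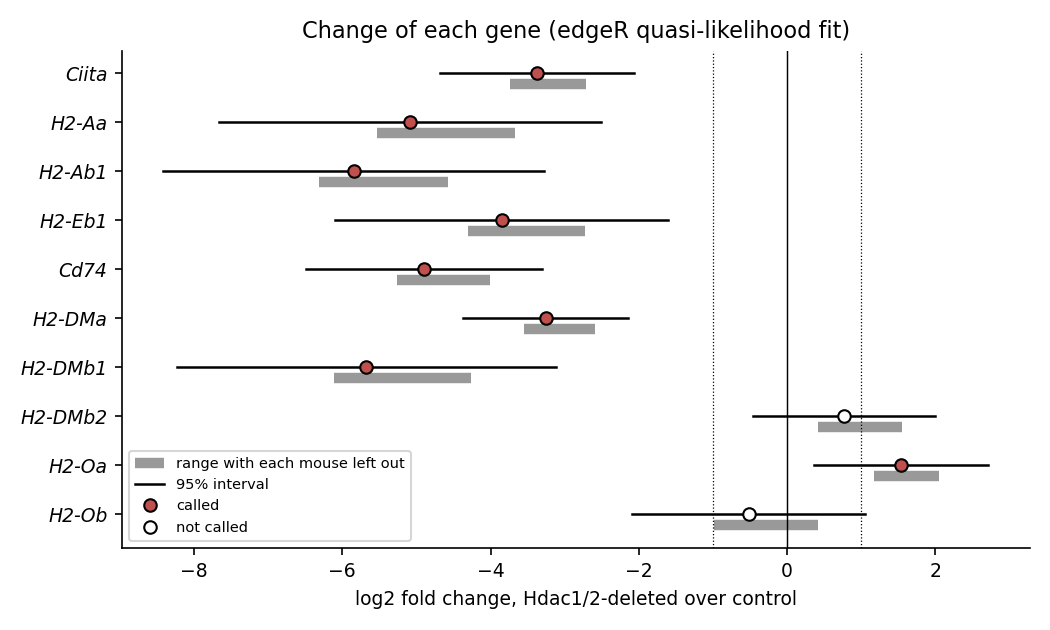
Log2 fold change of each gene, Hdac1/2-deleted over control, from the edgeR quasi-likelihood fit, with its 95% interval as a line and, as a grey bar, the range of the value with each of the 6 mice left out. Dotted lines mark a 2-fold change. The 7 decreased genes lie between -5.85 and -3.25 with intervals below the 2-fold line, while the interval of H2-Oa crosses the 2-fold line and those of H2-DMb2 and H2-Ob cross 0.

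Counted over the 10 genes, 7 had every Hdac1/2-deleted mouse below every control, against 26.6% of all genes tested, and 1 had every Hdac1/2-deleted mouse above, against 26.7%. In either direction this makes 8 of 10, against 53.2%. Ranked by log2 fold change from the lowest, H2-Ab1 was number 27 of the 15618 genes tested, H2-DMb1 number 32, H2-Aa number 58 and Cd74 number 68. H2-Eb1 was number 159, Ciita number 234 and H2-DMa number 259.

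Class II genes differed more between control mice than most genes did. The highest control was 9.26 times the lowest for H2-Ab1, 8.34 times for H2-Aa, 7.69 times for H2-Eb1 and 7.64 times for H2-DMb1. It was 4.10 times the lowest for Ciita, 3.58 times for Cd74 and 3.15 times for H2-DMa. Among 8591 tested genes whose mean log2 CPM reached 3 the median of this ratio was 1.28, and 90 of them (1.05%) reached 5. Among Hdac1/2-deleted mice the same ratio was 1.44 to 2.22 for the 7 decreased genes, with H9 the highest of the 3 in each.

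C3-3 supplied the highest control value in all 7, so the fits were repeated without it. The 7 genes remained decreased, with log2 fold changes of -2.71 for Ciita, -4.01 for Cd74, -3.67 for H2-Aa, -4.57 for H2-Ab1, -2.72 for H2-Eb1, -2.59 for H2-DMa and -4.27 for H2-DMb1. The edgeR adjusted p of these 7 was between 9.31e-05 and 0.00885 without C3-3.

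Levels of different genes were compared per length, as RPKM over the merged exons of the annotation. In control IEC, Cd74 was at 1152 ± 912 RPKM, H2-Ab1 at 298 ± 307, H2-Aa at 147 ± 159 and H2-Eb1 at 138 ± 132 (SD, n = 3 mice). H2-DMb1 followed at 26.7 ± 29.0 RPKM and H2-DMa at 20.4 ± 13.02, then Ciita at 1.58 ± 1.06, H2-Oa at 0.298 ± 0.168, H2-DMb2 at 0.152 ± 0.111 and H2-Ob at 0.0566 ± 0.0492. Neighbours in this order differed by less than the larger of their SDs, except that H2-DMa stood above Ciita and Ciita above H2-Oa by more than that.

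In Hdac1/2-deleted IEC the order was Cd74 at 38.6 ± 15.3 RPKM, H2-Eb1 at 9.57 ± 4.505, H2-Ab1 at 5.17 ± 2.08, H2-Aa at 4.31 ± 1.92 and H2-DMa at 2.14 ± 0.462 (SD, n = 3 mice). Below these came H2-Oa at 0.859 ± 0.365, H2-DMb1 at 0.512 ± 0.194, H2-DMb2 at 0.258 ± 0.0150, Ciita at 0.151 ± 0.0559 and H2-Ob at 0.0388 ± 0.0136 RPKM. Neighbours differed by less than the larger SD for H2-Eb1 and H2-Ab1, for H2-Ab1 and H2-Aa, and for H2-Oa and H2-DMb1. The mean RPKM of H2-Oa was thus not separable from that of H2-DMb1 in this group, and lay far below it in the controls.

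Ratios between genes within a mouse do not depend on how libraries are scaled, and 6 were compared, with an exact two-sided permutation test over the 6 mice whose smallest possible p is 0.1. The log2 ratio of H2-Oa to H2-DMa, the inhibitor to its target, was -8.27, -6.26 and -7.62 in C3-3, C3 and C1. It was -2.39, -3.14 and -2.50 in H9, H5 and H1, so that the mean was 4.71 higher with no overlap (exact p = 0.1, adjusted over the 6 ratios 0.15). The log2 ratio of H2-Ob to H2-DMa was 2.95 higher, from -8.13 ± 1.48 to -5.18 ± 0.193 (SD, n = 3 mice each), also with no overlap (exact p = 0.1). Both ratios contain the fall of H2-DMa itself, whose log2 fold change was -3.25. That of H2-Oa was 1.54, and that of H2-Ob was -0.51, a gene for which no direction can be given.

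The chains of H2-A were compared in the same way. The log2 ratio of H2-Ab1 to H2-Aa was 0.41, 0.26 and 0.75 in C3-3, C3 and C1 and -0.35, -0.23 and -0.28 in H9, H5 and H1, a difference of -0.76 with no overlap (exact p = 0.1). The log2 ratio of H2-DMa to H2-Aa rose from -2.57 ± 0.923 to -1.09 ± 0.299 (SD, n = 3 mice each), again with no overlap (exact p = 0.1). The log2 ratio of Cd74 to H2-Aa was 2.11 ± 0.621 and 2.00 ± 0.201 and overlapped (exact p = 0.8). The log2 ratio of H2-Aa to Ciita was 4.85 ± 1.12 and 3.50 ± 0.492 and overlapped (exact p = 0.3). With 3 mice in each group none of these tests could pass 0.05.

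**Figure D3:**
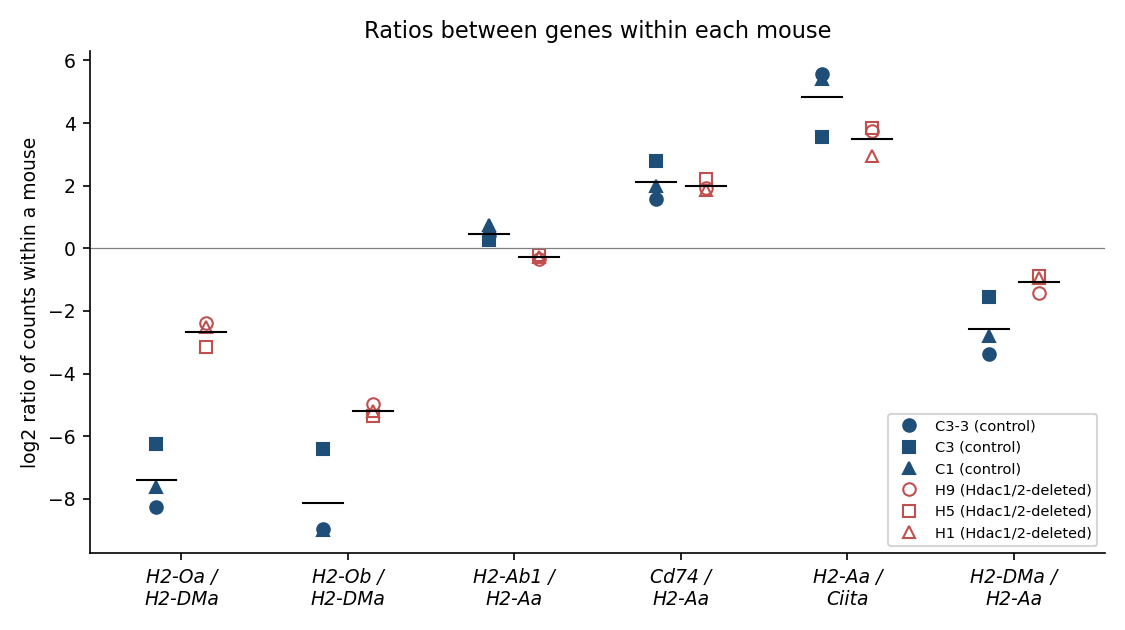
Log2 ratio of the counts of a gene to those of another within each of the 6 mice, with filled symbols for control and open symbols for Hdac1/2-deleted mice and a bar at each group mean. The groups separate for the ratios of H2-Oa and H2-Ob to H2-DMa, H2-Ab1 to H2-Aa and H2-DMa to H2-Aa, and overlap for Cd74 to H2-Aa and H2-Aa to Ciita.

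Other class II genes of the H2 complex were followed as well. H2-Ea-ps, the H2-E alpha chain gene that is annotated as a pseudogene in the reference strain, was at 149, 102 and 71.7 CPM in C3-3, C3 and C1 and at 5.84, 2.79 and 4.47 CPM in H9, H5 and H1. It was decreased with no overlap and with less spread between controls than the beta chain gene (log2 fold change -4.62, standard error 0.38, edgeR adjusted p = 9.14e-05). H2-Eb2 had 1, 1 and 2 counts in control mice and 12, 2 and 6 in Hdac1/2-deleted mice, too few to be tested. Btnl2, a butyrophilin-like gene of the complex, fell by 1.49 on the log2 scale (edgeR adjusted p = 0.0013).

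All members except Ciita and Cd74 lie in 1 stretch of chromosome 17. Between H2-K1 and Notch4 (33996017 to 34588503 on GRCm38), 27 genes of the table besides the members were placed, and 22 of these were tested. Of the 22, 8 were decreased and 0 were increased in the edgeR fit, beside 12.7% and 12.4% of all genes tested. At an unadjusted edgeR p under 0.05, 1 of the 22 was higher and 10 were lower. DESeq2 and limma voom each called 0 increased and 8 decreased.

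The decreased neighbours were of several kinds. H2-K1, a classical MHC class I heavy chain, fell by 2.11 on the log2 scale (edgeR adjusted p = 2.21e-04). Tap2, a subunit of the peptide transporter for class I molecules, fell by 1.22, and the butyrophilin-like genes Btnl1 and Btnl7-ps fell by 1.72 and 1.30. Btnl2 and H2-Ea-ps are counted here too. Brd2, a bromodomain protein that binds acetylated histones, fell by 1.004 and lay below the 2-fold limit in 10 of the alternative fits. Gm20513, the antisense partner of H2-Eb1, had 16, 11 and 19 counts in C3-3, C3 and C1 and 0 counts in each Hdac1/2-deleted mouse.

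Not every gene between the members moved with them. Tap1, Psmb8 and Psmb9, the class I transporter and immunoproteasome genes that stand between H2-DMb1 and H2-Ob, had log2 fold changes of 0.24, -0.49 and -0.50 (edgeR adjusted p = 0.522, 0.208 and 0.216). At the edges of the stretch, Ring1 was at 0.09 and Notch4 at 0.03. Btnl6 had a large difference, -3.56, that did not pass (edgeR adjusted p = 0.0622), with 345, 14.2 and 174 CPM in C3-3, C3 and C1 and 11.6 to 18.5 CPM in the Hdac1/2-deleted mice. C3 was also the lowest control for H2-Aa, H2-Ab1, H2-Eb1 and H2-DMb1.

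**Figure D4:**
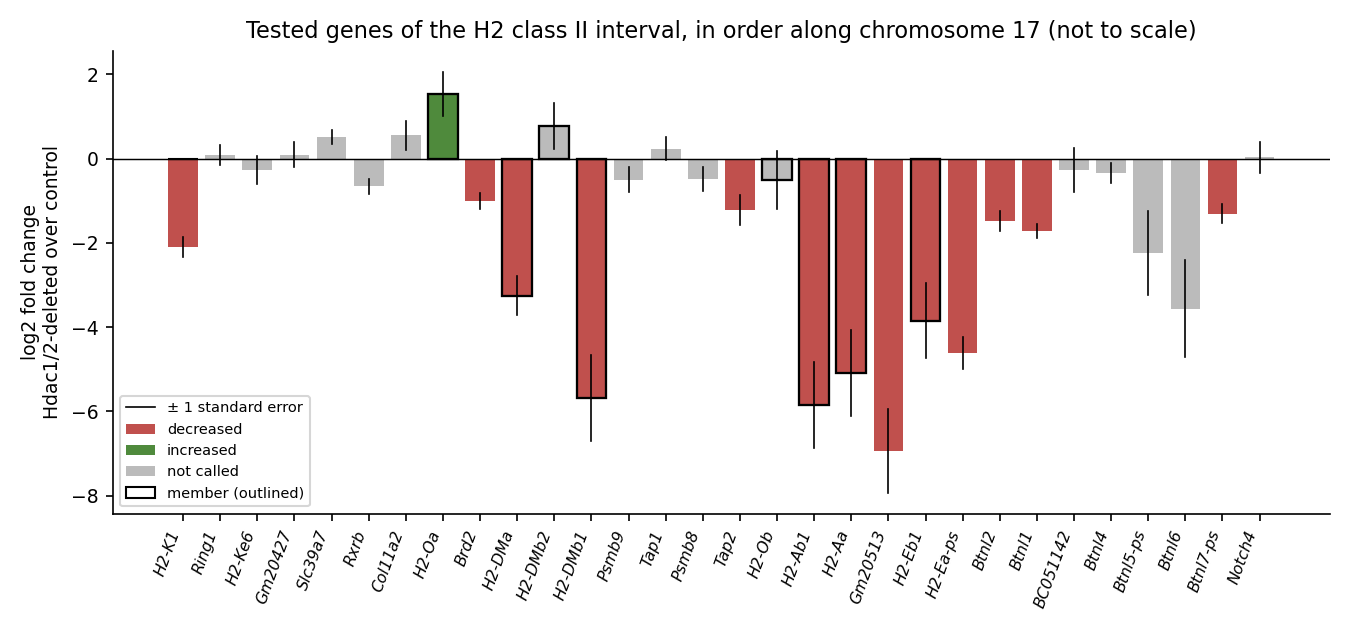
Log2 fold change, Hdac1/2-deleted over control, of the 30 tested genes from H2-K1 to Notch4 in their order along chromosome 17, with lines for 1 standard error and outlined bars for the class II members. Uncalled genes stand between decreased members, namely H2-DMb2 between H2-DMa and H2-DMb1, and Tap1, Psmb8, Psmb9 and H2-Ob between H2-DMb1 and H2-Ab1. H2-Oa is the 1 increased gene. The bar of Gm20513 is a fitted value against 0 counts and is no measured fold.

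Genes that act upstream of class II transcription were described by list. Of 7 factors that bind class II promoters, 2 were decreased and 0 increased (edgeR), beside 12.7% and 12.4% of all genes tested, with a median log2 fold change of -0.61. A count of 2 among 7 genes does not set the list apart from all genes. Rfxank, which encodes a subunit of the RFX complex, was at 31.5, 47.4 and 25.3 CPM in C3-3, C3 and C1 and at 9.77, 16.2 and 12.5 CPM in H9, H5 and H1 (log2 fold change -1.44, standard error 0.27, edgeR adjusted p = 0.00302). Rfxap, another RFX subunit, was at 11.5, 12.6 and 14.1 CPM and at 4.84, 7.56 and 4.91 CPM (log2 fold change -1.14, standard error 0.23, edgeR adjusted p = 0.00417). Neither gene had overlapping groups.

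Rfx5, the DNA-binding subunit of the same complex, did not pass, with a log2 fold change of 0.61 (edgeR adjusted p = 0.118), and its groups overlapped. At an unadjusted edgeR p under 0.05, 1 factor was higher and 4 were lower, and DESeq2 and limma voom each called the same numbers as edgeR, 0 increased and 2 decreased.

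Of 12 genes from interferon gamma to Ciita, 11 were tested, with a median log2 fold change of -0.31. Of these, 1 was decreased and 0 were increased, beside 12.7% and 12.4% of all genes tested. Prdm1, which encodes the repressor Blimp-1 and is known to silence Ciita in plasma cells, was the 1 gene decreased, at 10.97, 8.93 and 6.01 CPM in C3-3, C3 and C1 and 2.50, 2.53 and 2.02 CPM in H9, H5 and H1 (log2 fold change -1.88, standard error 0.28, edgeR adjusted p = 8.89e-04). Irf1, an interferon-induced transcription factor that acts on a Ciita promoter, had a log2 fold change of -0.81 and missed the 2-fold limit (edgeR adjusted p = 0.0152).

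Interferon gamma itself could hardly be measured. Ifng had 0, 4 and 0 counts in C3-3, C3 and C1 and 1, 1 and 4 counts in H9, H5 and H1, and was not tested. No gene of the list was called increased by edgeR, DESeq2 or limma voom, and at an unadjusted edgeR p under 0.05, 0 were higher and 5 lower.

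Of 17 other interferon gamma target genes tested, 4 were decreased and 1 was increased, with a median log2 fold change of -0.25. The 5 calls are a share near the 25.2% of all genes called. Tap2, Tapbp and Cd274 fell by 1.22, 1.11 and 2.28 on the log2 scale (edgeR adjusted p = 0.03, 0.00367 and 0.00589), and Cd274 encodes the inhibitory ligand PD-L1. Tap2 lost its call without C3 (log2 fold change -0.74), H9 or H1 (edgeR adjusted p = 0.0879 and 0.0964), and Tapbp missed the 2-fold limit without C3 or H1 (log2 fold changes -0.91 and -0.97). A Gbp6 entry (ENSMUSG00000104713), of a guanylate-binding protein family with closely related copies, was decreased on overlapping groups (log2 fold change -2.46, edgeR adjusted p = 0.0444) and lost its call without any mouse except C3-3. Cxcl10, a chemokine for T cells, rose (log2 fold change 1.60, edgeR adjusted p = 0.0153), a call lost without H1 (edgeR adjusted p = 0.063). Nlrc5, the coactivator of class I genes, was at 3.20, 3.40 and 1.48 CPM in C3-3, C3 and C1 and 1.41, 1.26 and 1.63 CPM in H9, H5 and H1, and did not pass (edgeR adjusted p = 0.0785).

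Of 14 genes of endolysosomal processing tested, 3 were decreased and 2 increased, beside 12.7% and 12.4% of all genes tested, with a median log2 fold change of 0.26. Shares of this size in so few genes are near those of all genes. Ctss, cathepsin S, the protease known for the last steps of invariant chain cleavage, was at 256, 235 and 239 CPM in C3-3, C3 and C1 and at 89.2, 82.2 and 71.2 CPM in H9, H5 and H1 (log2 fold change -1.59, standard error 0.14, edgeR adjusted p = 5.85e-05). The controls lay close together for Ctss, unlike for the class II genes. Ctsl, cathepsin L, which does this in thymic epithelium, was at 23.2, 40.5 and 18.8 CPM and at 125, 114 and 147 CPM (log2 fold change 2.23, standard error 0.28, edgeR adjusted p = 4.78e-04). Ctsh and Cst3, a cathepsin and the cathepsin inhibitor cystatin C, fell by 2.12 and 1.38 on the log2 scale, and Ctsz rose by 1.03, a change under the 2-fold limit without C1, H9 or H5.

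Costimulatory and coinhibitory ligands were mostly low. Of 6 tested, 1 was increased and 1 decreased, beside 12.4% and 12.7% of all genes tested, with a median log2 fold change of 0.53. Cd276, which encodes B7-H3, rose (log2 fold change 2.19, edgeR adjusted p = 7.99e-04) and Cd274 fell. The classical ligands Cd80 and Cd40 had 0 to 9 counts per mouse and were not tested.

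**Figure D5:**
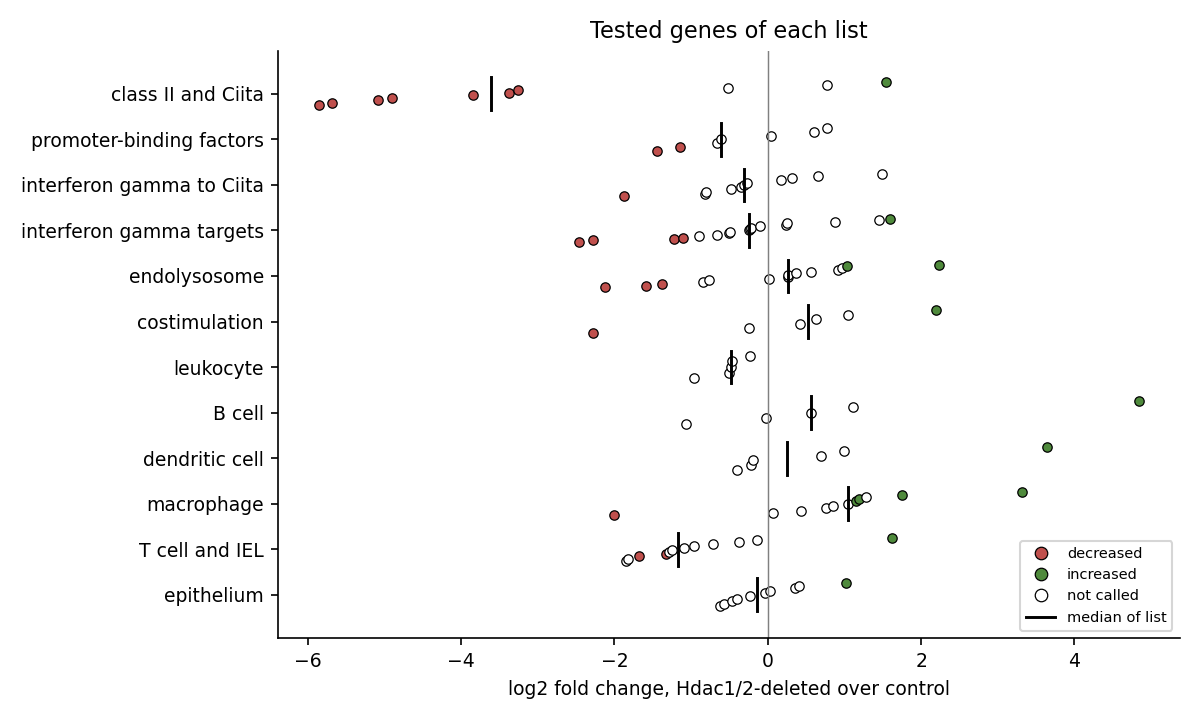
Log2 fold change, Hdac1/2-deleted over control, of each tested gene of the class II group, its upstream and downstream lists and the cell type marker lists, with a bar at each list's median. The class II group has its median at -3.61, while the medians of the other lists drawn lie between -1.17 and 1.04. The list of other class II genes of the H2 complex is not drawn. Its 2 tested genes, H2-Ea-ps and Btnl2, were decreased, at -4.62 and -1.49.

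The tissue label was checked with markers. The 10 epithelial markers summed to 13913 to 15810 CPM in control and 11066 to 13599 CPM in Hdac1/2-deleted mice. Krt18 was the 1 marker called, increased (log2 fold change 1.02), beside 25.2% of all genes tested. At an unadjusted edgeR p under 0.05, 2 were higher and 3 lower. The lower 3, Epcam, Krt20 and Cdh1, had log2 fold changes of -0.62, -0.57 and -0.40. Groups did not overlap for 3 lower markers, against 26.6% of all genes tested, and 1 higher, against 26.7%. The list median was -0.13. In bulk RNA, fewer cells of a type and less RNA per cell cannot be told apart, and B cells, dendritic cells and macrophages in the fraction would bring class II RNA of their own. The 5 pan-leukocyte markers summed to 23.9 to 78.1 CPM in control and 24.1 to 52.7 CPM in Hdac1/2-deleted mice. None was called by edgeR, DESeq2 or limma voom, and 1 was lower at an unadjusted edgeR p under 0.05. Ptprc, which encodes CD45, was at 21.1, 20.2 and 8.21 CPM in C3-3, C3 and C1 and at 12.3, 6.24 and 6.87 CPM in H9, H5 and H1 (log2 fold change -0.96, edgeR adjusted p = 0.0903), and it was called without C1 (edgeR adjusted p = 0.00816) and without H9 (0.0409).

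C1 had the lowest pan-leukocyte sum of the 6 mice, 23.9 CPM, and its 10 class II genes summed to 2031 CPM. H9 had a pan-leukocyte sum of 52.7 CPM, and its class II genes summed to 181 CPM. C3 had the highest pan-leukocyte sum, 78.1 CPM, with the lowest class II sum of the controls, 1515 CPM, while C3-3 had 64.9 and 7420 CPM. The pan-leukocyte and class II sums were 32.7 and 101 CPM in H5, and 24.1 and 91.5 CPM in H1. Whether the leukocyte content bears on the class II sums was not tested.

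Among the markers of B cells, dendritic cells and macrophages, Cd14 was the 1 gene called decreased. Of 5 B cell markers tested (10 in the table), edgeR called 1 increased and 0 decreased, beside 12.4% and 12.7% of all genes tested. DESeq2 and limma voom gave the same numbers, and 0 were lower at an unadjusted edgeR p under 0.05. The list summed to 5.37 to 14.0 CPM in control and 34.4 to 48.1 CPM in Hdac1/2-deleted mice. That sum followed Cd79b alone, which rose by 4.84 on the log2 scale. The defining marker Ms4a1 was near 0, with 1 to 14 counts per mouse, and Cd79a did not pass (log2 fold change -1.07, edgeR adjusted p = 0.162).

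The 9 dendritic cell markers summed to 3.79 to 11.04 CPM in control and 7.36 to 12.2 CPM in Hdac1/2-deleted mice. Beside 25.2% of all genes tested, 1 of the 6 tested here was called. This was Zbtb46, which rose by 3.65 on the log2 scale, while Itgax and Flt3 did not pass (log2 fold changes -0.22 and 0.69, edgeR adjusted p = 0.78 and 0.245). Xcr1, Clec9a and Ccr7 were too low to be tested.

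The 11 macrophage markers summed to 68.7 to 85.2 CPM in control and 46.1 to 70.4 CPM in Hdac1/2-deleted mice. Cd14 made up most of the sum in control mice, at 58.2, 48.5 and 67.9 CPM in C3-3, C3 and C1, and a minor share at 10.96, 18.6 and 13.9 CPM in H9, H5 and H1 (log2 fold change -2.01). Among the 11 tested, 4 were increased and 1 was decreased, beside 12.4% and 12.7% of all genes tested. DESeq2 called 6 increased and 1 decreased, and limma voom 2 and 1. At an unadjusted edgeR p under 0.05, 7 were higher and 1 was lower. Csf1r rose by 1.75 and Mrc1 by 3.32, while C1qa and C1qb rose by 1.18 and 1.15 and lost their calls in some fits without a mouse. Adgre1 did not pass (log2 fold change 0.76, edgeR adjusted p = 0.315).

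T cell and intraepithelial lymphocyte markers had the lowest median log2 fold change of the marker lists, -1.17. The 12 markers summed to 430, 496 and 132 CPM in C3-3, C3 and C1 and to 132, 161 and 67.7 CPM in H9, H5 and H1. Cd3g and Cd8a fell by 1.68 and 1.32 on the log2 scale on overlapping groups, Cd4 rose by 1.62, and the other 9 were not called. In edgeR this makes 2 of 12 decreased and 1 increased, beside 12.7% and 12.4% of all genes tested. DESeq2 called 5 decreased and 1 increased, and limma voom 0 and 1. At an unadjusted edgeR p under 0.05, 5 were lower and 1 was higher. The call of Cd8a was lost without any mouse except C1 (edgeR adjusted p = 0.0744 to 0.115), that of Cd3g without C3-3, C3, H5 or H1 (0.0753 to 0.101) and that of Cd4 without H9 (0.0556), and limma voom called neither Cd3g nor Cd8a. The part of these cells in the class II result was not tested. The remaining innate lymphoid, plasma cell and fibroblast and endothelial lists had 1 call each, of 5, 4 and 7 genes tested. Over all genes tested, 25.2% were called. The calls were Eomes and Sdc1, the latter also an epithelial gene, which rose by 6.50 and 1.79 on the log2 scale, and Dcn, which fell by 1.48.

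Genes with a pattern over the 6 mice most like that of H2-Aa, H2-Ab1, H2-Eb1 and Cd74 were sought by Pearson's r with the mean of their standardised log2 CPM, among 8584 genes whose mean log2 CPM reached 3. The highest was Rp9 (r = 0.998), at 49.1, 35.8 and 39.4 CPM in C3-3, C3 and C1 and 28.7, 25.7 and 25.4 CPM in H9, H5 and H1. Mccc1 (r = 0.993) and Cobl (r = 0.992) followed, with log2 fold changes of -0.25 and -1.35, beside -0.64 for Rp9. Over 6 mice in groups that are far apart, r describes the order and spacing of the mice and not the size of the change, and the points share their libraries.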

How the data were processed

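The authors sequenced poly(A) RNA with a directional kit and aligned reads with STAR (2.4.0f1 in the submitters' processing notes). The notes name mm9 and the methods GRCm38. The counting program, annotation and strand setting are not given in the sources used here. Reads were matched to a reference genome of a single strain, while class II alleles differ between strains and this background is mixed, which can lower the counts of some alleles. The deposited table holds raw counts per gene. It also holds normalised counts that the authors rounded, treated here as a score, and log2 fold changes and log2 CPM values of the authors, with their adjusted p-values. None of these was used.

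Counts were fitted with edgeR 4.0.16 (robust quasi-likelihood, TMM, filterByExpr, prior count 0.125) in R 4.3.3, with limma 3.58.1 voom and DESeq2 1.42.0 as alternatives, together with other scalings, filters and limits and each mouse left out. CPM and RPKM were computed from the counts with positions, exon lengths and transcripts of GENCODE M21 (GRCm38), and promoters came from RefSeq (GRCm38.p6). Within-mouse ratios were compared by exact permutation. Plots were drawn with matplotlib 3.10.9. Of these steps, the edgeR fit and its calls were tested on simulated data.

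The members and lists were chosen with earlier results of these data known. Named genes are the 10 members, called genes of the lists and of the chromosome 17 stretch, the uncalled genes needed to read a list, and the 3 genes most like the class II genes. Cd80, Cd40, Xcr1, Clec9a, Ccr7, Epcam, Krt20, Cdh1, Tap1, Psmb8, Psmb9, Ring1, Notch4 and Btnl6 were added after their values were seen. Some listed genes are not reported here.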

Additional observations from a re-analysis of the deposited data

How the results depend on the processing

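The 7 decreased members stayed 7 under every other scaling, test, filter and prior count, and were 5 at an adjusted p limit of 0.01 and 5 to 7 with a mouse left out. Ciita, Cd74, H2-Ab1, H2-DMa and H2-DMb1 kept their call in all 16 alternatives. The 1 increased member, H2-Oa, became 0 at an adjusted p limit of 0.01 and 0 to 1 with a mouse left out. Members without overlap were 8, or 9 with library totals only. That scaling moved the median log2 fold change of all genes to 0.18 and the calls from 1944 increased and 1990 decreased to 2463 and 1538, and no member changed direction under it.

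Reversed values were H2-Ob at 0.42 without C3 (range with a mouse left out -0.98 to 0.42) and the log2 ratio of Cd74 to H2-Aa at 0.23 without C3, where the difference was -0.11 and ranged from -0.38 to 0.23. Without the 2-fold limit, the promoter-binding factors had 1 increased and 4 decreased, the genes from interferon gamma to Ciita 4 decreased, the endolysosomal genes 4 increased and 5 decreased, and the neighbours on chromosome 17 1 increased. With library totals only, the promoter-binding factors had 1 decreased and the interferon gamma targets 2 increased, as with DESeq2. At an adjusted p limit of 0.01 the interferon gamma targets had 0 increased and 2 decreased. With at least 10 counts in every sample, which tests fewer genes, they had 2 decreased and the costimulatory ligands 0 decreased. Upper-quartile factors left 1 endolysosomal gene increased. With a mouse left out, increased genes were 0 to 1 from interferon gamma to Ciita, 0 to 2 of the interferon gamma targets and 1 to 3 of the endolysosomal genes, and decreased interferon gamma targets were 1 to 4. The cause was not tested.

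No paired analysis was possible because the names of the mice do not link control and Hdac1/2-deleted mice. At this depth H2-DMb2, H2-Oa and H2-Ob rest on 5 to 108 counts per mouse.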
